A study of Solanum lycopersicum with 6 samples.

Results

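miR172 is a plant microRNA (miRNA), a short RNA that guides the repression of matching mRNAs, and 3 of the 137 mature tomato miRNAs in the count table carry its name: sly-miR172a, sly-miR172c and sly-miR172d, written below without the species prefix. They are all the entries so named, whatever their values. The small RNA of green fruit of tomato (Solanum lycopersicum) was sequenced to compare plants kept at normal watering with plants under drought. In the 3 control libraries, pots alternated between a day of liquid fertilizer diluted 500-fold and a day of plain water from flowering on. In the 3 drought libraries, pots got the same diluted fertilizer once a week and nothing else, so the groups differed in fertilizer as well as in water. All plants grew in Hyuga soil in a greenhouse that was lit for 12 h a day, at 25 °C while lit and at 20 °C while dark; the labels name neither the cultivar nor whether a library is 1 plant or a pool. The spread that enters each p-value is thus that between libraries, and it may be technical. A miRNA table holds no marker of tissue that could check the label fruit.

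miR172 pairs with a site in the coding sequence of mRNAs for APETALA2-like (AP2-like) transcription factors, and in Arabidopsis it blocks their translation and also has them cleaved. It is known as the late partner of miR156 in plant ageing: miR156 falls and miR172 rises as an Arabidopsis plant matures, because the SBP-box factors that miR156 represses switch on miR172 genes. In tomato, AP2a, an AP2-like factor whose mRNA miR172 recognises, holds back ethylene production in ripening fruit, and MIR172d is needed for the identity of floral organs. The mRNAs of these targets were not measured here. In the RefSeq gene table of assembly SLM_r2.1, the precursor genes MIR172c and MIR172d overlapped no other gene, and MIR172a overlapped a long non-coding RNA gene. A further precursor in that table, MIR172b, was not analysed here.

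The members did not move together. Drought fruit held 4.12-fold less miR172c than control fruit, while miR172a and miR172d did not pass the test. In every control library miR172c had the most counts of the family, and in every drought library the fewest. In drought libraries 1 and 3 that last place was within counting error. Library 1 had 12 counts of miR172c against 20 of miR172a, and library 3 had 32 against 36 and 36. Of the 3 members, 1 fell, where 20.2% of the 99 miRNAs with enough counts to test passed the same test in either direction, 11.1% having fallen and 9.09% having risen.

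miR172c had counts of 140, 155 and 164 in control libraries 1, 2 and 3 and of 12, 39 and 32 in drought libraries 1, 2 and 3. Per 1000000 counts of the scaled library (CPM), these were 233, 240 and 227 in control and 31.9, 61.6 and 74.8 in drought. Every drought library lay below every control library, as for 19.2% of the tested miRNAs, and drought library 1 was the lowest. With 12 counts, that library's value has an exact 95% Poisson interval from 16.5 to 55.8 CPM, which covers counting error only, since PCR copies are not marked. The mean was 233 ± 6.27 CPM for control and 56.1 ± 21.9 for drought (SD, n = 3 each). The log2 fold change was -2.04 ± 0.45 (SE), with a 95% interval from -3.04 to -1.04 (edgeR quasi-likelihood test with Benjamini-Hochberg adjustment, adjusted p = 0.0106). It was the 8th lowest of the 99 log2 fold changes, whose median was 0.16. Leaving out control replicate 2 gave -1.91 and ended the call (edgeR adjusted p = 0.0560).

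miR172a had counts of 62, 48 and 90 in the control libraries and of 20, 125 and 36 in the drought libraries, in the order of their numbers. Its levels were 103, 74.2 and 125 CPM in control and 53.2, 197 and 84.2 in drought. The groups overlapped: drought library 1 was the lowest of the 6 and drought library 2 the highest. The mean was 101 ± 25.3 CPM for control and 112 ± 75.8 for drought (SD, n = 3 each). Its log2 fold change, 0.16 ± 0.52, had a 95% interval from -0.997 to 1.32 (edgeR adjusted p = 0.834). Drought library 2 set the sign, because the fit without drought replicate 2 gave -0.70 (edgeR adjusted p = 0.316). That library also had the largest scaling factor, 1.35, against 0.848 to 1.0 in the other 5. A large factor lowers the CPM: with library totals alone, miR172a stood at 267 CPM there and its log2 fold change was 0.46.

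miR172d had counts of 47, 37 and 54 in control and of 43, 68 and 36 in drought. Its levels were 78.1, 57.2 and 74.8 CPM in control and 114, 107 and 84.2 in drought. Every drought library lay above every control library, the gap being that between 78.1 and 84.2 CPM, which is within the counting error of either. Groups that did not overlap in either direction were found for 37.4% of the tested miRNAs, miR172c and miR172d among them, and 18.2% lay higher in drought as miR172d did. The mean of miR172d was 70.1 ± 11.2 CPM for control and 102 ± 15.9 for drought (SD, n = 3 each). Its log2 fold change, 0.54 ± 0.37, did not pass, with a 95% interval from -0.28 to 1.36 (edgeR adjusted p = 0.294). The interval of miR172c lay wholly below those of miR172a and miR172d, but narrowly for miR172a, with an upper end of -1.04 against a lower end of -0.997. These intervals are not adjusted for the number of miRNAs tested.

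**Figure D1:**
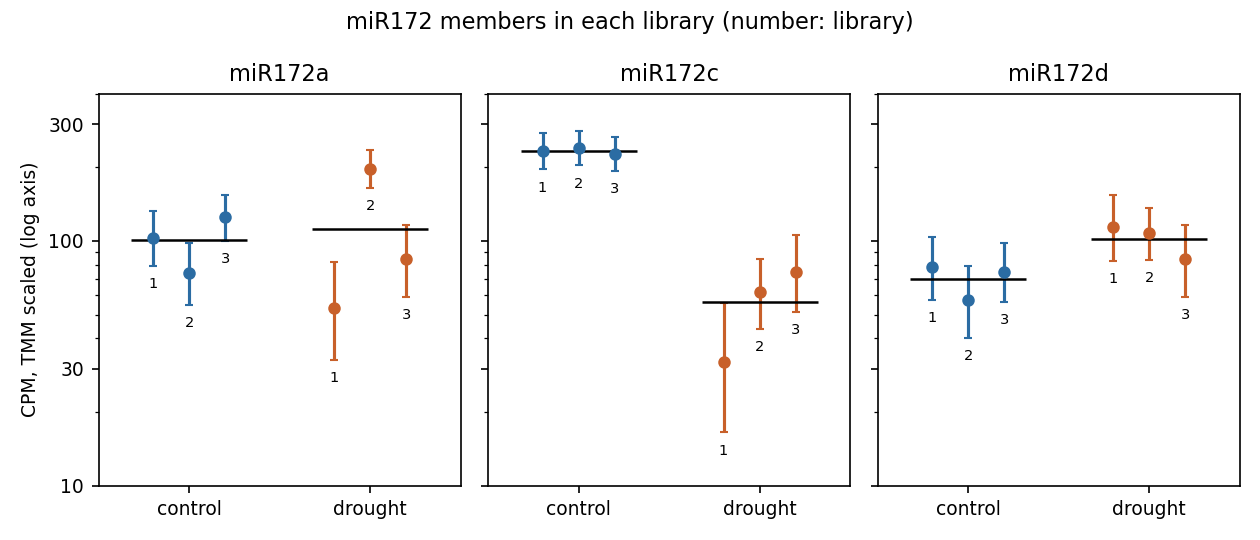
Level of each miR172 member in each library, in CPM after TMM scaling on a log axis; points are libraries with exact 95% Poisson intervals (counting error only), numbers are library numbers, and black lines are the means of 3 libraries. The control libraries of miR172c lie between 227 and 240 CPM and all its drought libraries at or below 74.8, while miR172a runs from 53.2 to 197 CPM within drought.

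The spread between libraries was not the same for the members. For miR172d it was about that of counting alone, with a chi-square per degree of freedom of 1.16 in control and 1.04 in drought. For miR172a it was 4.29 in control and 23.7 in drought, so its drought libraries differed far beyond counting error. For miR172c it was 0.115 in control, less than counting alone gives on average, and 3.32 in drought. A spread below that of counting cannot be read as a trait of miR172c. The coefficient of variation of miR172c was 2.69% in control, the 3rd lowest of the 99 tested miRNAs, against a median of 27.8%. In drought it was 39.1%, equal to the median of all tested miRNAs in drought.

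By mean CPM the members ranked 71st (miR172c), 75th (miR172a) and 77th (miR172d) of the 99 tested miRNAs. Library totals ran from 644434 to 749332 counts in control and from 430732 to 468711 in drought, and 1 count was worth 1.39 to 1.66 CPM in control and 1.58 to 2.66 CPM in drought. The family took 0.0372% to 0.0411% of the counts in control libraries and 0.0169%, 0.0495% and 0.0241% in drought libraries 1, 2 and 3. By counts, miR172c ranked 60th of 137 entries in each of the 3 control libraries, and 95th, 84th and 80th in drought libraries 1, 2 and 3. miR172d ranked 77th, 81st and 79th in control and 72nd, 73rd and 72nd in drought, and miR172a 72nd, 79th and 69th in control and 86th, 60th and 72nd in drought.

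Compared within a library, which needs no scaling between libraries, miR172c was lower relative to the other members in drought than in control. Adapter ligation favours some miRNA ends over others, so the counts of different members are not their true proportions; a ratio can be compared only between libraries. How reads that match several members were assigned is not stated in the labels or the file header, so values of single members are uncertain to that extent. Of all miR172 counts, miR172c held 56.2%, 64.6% and 53.2% in control libraries 1, 2 and 3 and 16.0%, 16.8% and 30.8% in drought libraries 1, 2 and 3. The 95% Wilson interval of the lowest control share was 47.7% to 58.7% and that of the highest drought share 22.7% to 40.2%. The mean share was 58.0% ± 5.88 in control against 21.2% ± 8.30 with drought (SD, n = 3 each), and the exact permutation test, two-sided, gave p = 0.1, the least possible with 3 libraries against 3.

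The ratio of miR172c to miR172d counts was 2.98, 4.19 and 3.04 in the control libraries and 0.279, 0.574 and 0.889 in the drought libraries. The groups did not overlap, and the mean log2 ratio differed by -2.69, drought minus control, at 1.75 ± 0.28 against -0.94 ± 0.84 (SD, n = 3 each). The exact permutation test gave p = 0.1, and 0.15 after adjustment over the 3 ratios. The ratio of miR172c to miR172a was 2.26, 3.23 and 1.82 in control and 0.600, 0.312 and 0.889 in drought. Here too the groups did not overlap, with mean log2 ratios of 1.24 ± 0.42 for control and -0.86 ± 0.76 for drought (exact permutation p = 0.1, adjusted 0.15). The ratio of miR172a to miR172d was 1.32, 1.30 and 1.67 in control and 0.465, 1.84 and 1.0 in drought, and the groups overlapped (exact permutation p = 0.5, adjusted 0.5). In each control library the order of counts was miR172c, miR172a, miR172d. In drought, miR172d had the most counts in library 1 and miR172a in library 2, and library 3 had 36 counts of each of these.

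**Figure D2:**
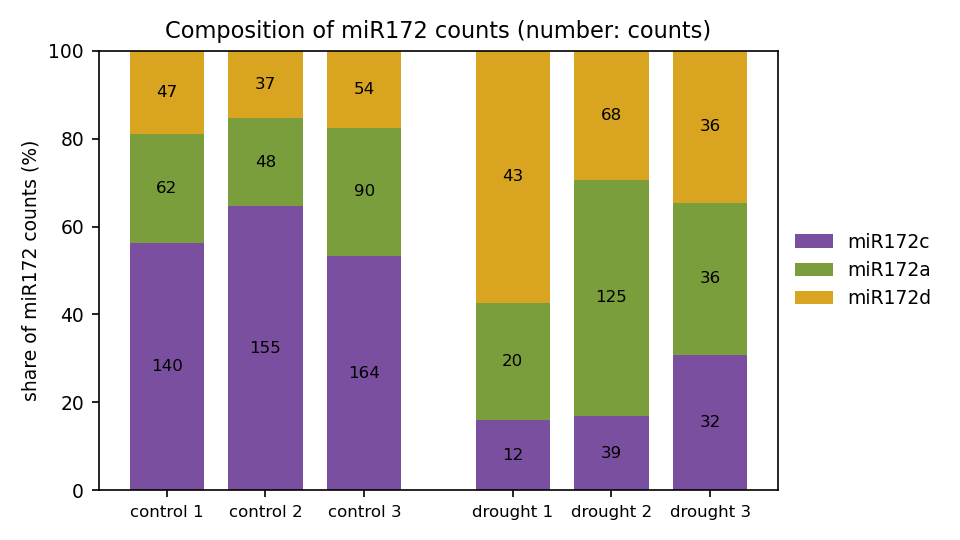
Share of all miR172 counts held by each member in each library, in percent, with the count written in each segment. miR172c takes 53.2% or more in the control libraries and 30.8% or less in the drought libraries, and a different member leads in drought libraries 1 and 2.

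Summed over its members, the family had a negative log2 fold change that did not pass the test and that changed in size with the scaling. The summed level was 409, 384 and 435 CPM in control libraries 1, 2 and 3 and 184, 351 and 264 CPM in drought libraries 1, 2 and 3, scaled by the factors of the table of family sums. The groups did not overlap at this scaling, as for 36.5% of the 52 tested families, but with library totals alone, DESeq2 size factors or upper-quartile scaling they did. With totals alone drought library 2 held the highest level of the 6. The means were 409 ± 25.7 and 266 ± 83.6 CPM (SD, n = 3 each). The log2 fold change of the sum, -0.62 ± 0.41, did not pass (edgeR adjusted p = 0.306), where 30.8% of the families did. It was -0.36 with library totals alone and -0.13 with upper-quartile scaling (edgeR adjusted p = 0.583 and 0.848). Without drought replicate 2 the sum did pass, at -1.05 (edgeR adjusted p = 0.00897). Calls over single miRNAs also rose with that library left out, from 20 of 99 to 41 of 101. The share of families that passed there was not counted. A sum is not touched by counts traded between members.

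**Figure D3:**
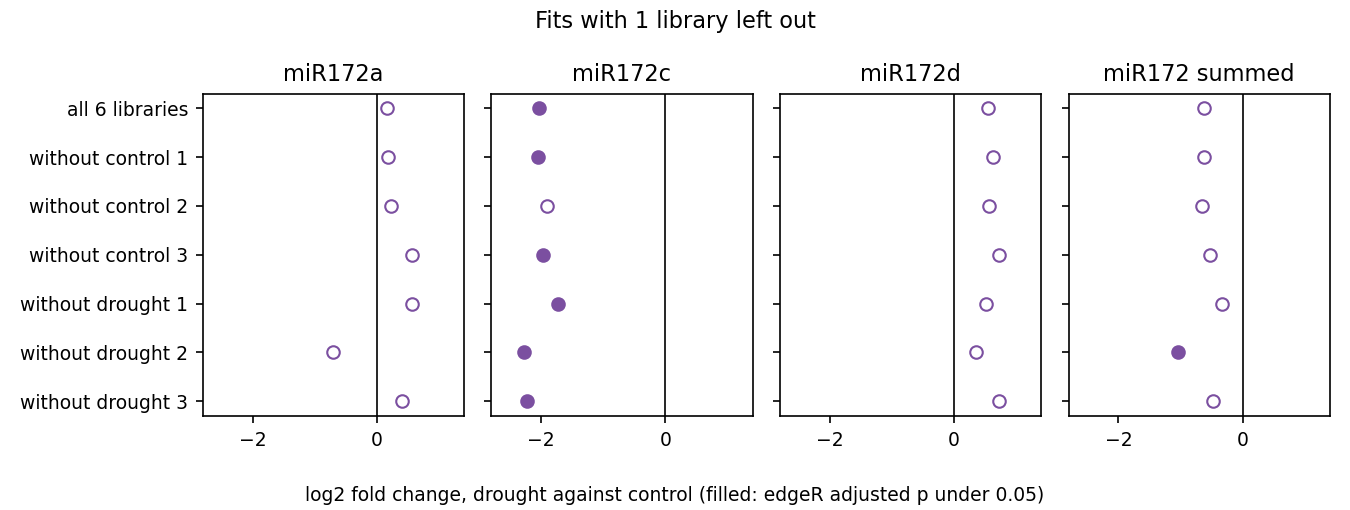
Log2 fold change of each miR172 member and of their sum, drought against control, with all 6 libraries and with each library left out in turn; filled points have an edgeR adjusted p under 0.05. miR172c stays between -2.27 and -1.72 and loses its call without control library 2, miR172a turns negative without drought library 2, and the sum passes there. Of all tested miRNAs, 20 of 99 pass with all 6 libraries, 9 of 99 without control library 2 and 41 of 101 without drought library 2.

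The other miRNA families of the age and flowering pathways were taken as all entries of miR156, miR159, miR319, miR390 and miR399. Of the 15 tested of 18 entries, 5 fell, 1 rose and 9 did not pass, where 11.1% of all tested miRNAs fell and 9.09% rose, with a median log2 fold change of -0.11 beside 0.16 over all tested miRNAs. The count was 3 without control replicate 2. In miR156, which targets SBP-box factors, 4 of 5 entries fell and all 5 log2 fold changes were negative, from -2.94 for miR156d-5p over -2.36 for miR156d-3p and -1.70 for miR156e-5p to -1.36 for miR156a and -0.64 for miR156e-3p. In miR159, which targets GAMYB-like factors, miR159b fell by 2.32 on the log2 scale and miR159 stood at -0.03. In miR319, which targets TCP factors, miR319a at -1.09, miR319c-3p at 0.40 and miR319b at 0.38 did not pass (edgeR adjusted p = 0.0928, 0.464 and 0.455). In miR390, which directs the making of trans-acting small RNAs against auxin response factors, miR390b-5p at 0.61, miR390a-5p at 0.25 and miR390a-3p at -0.11 did not pass (edgeR adjusted p = 0.335, 0.705 and 0.870). In miR399, which targets the phosphate regulator PHO2, miR399 rose, at 2.08, and miR399b at 1.86 did not pass (edgeR adjusted p = 0.0529).

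miR156 and miR172c were thus both lower in drought fruit. The summed miR156 counts were 11.6, 27.5 and 13.4 times the summed miR172 counts in control libraries 1, 2 and 3, and 11.1, 4.17 and 7.31 times in the drought libraries. The groups were separated by a narrow gap, that between drought library 1 and control library 1. The mean log2 ratio went from 4.02 ± 0.67 to 2.80 ± 0.71 (SD, n = 3 each), with an exact permutation p = 0.1, the least possible; the comparison was added after the values were seen.

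**Figure D4:**
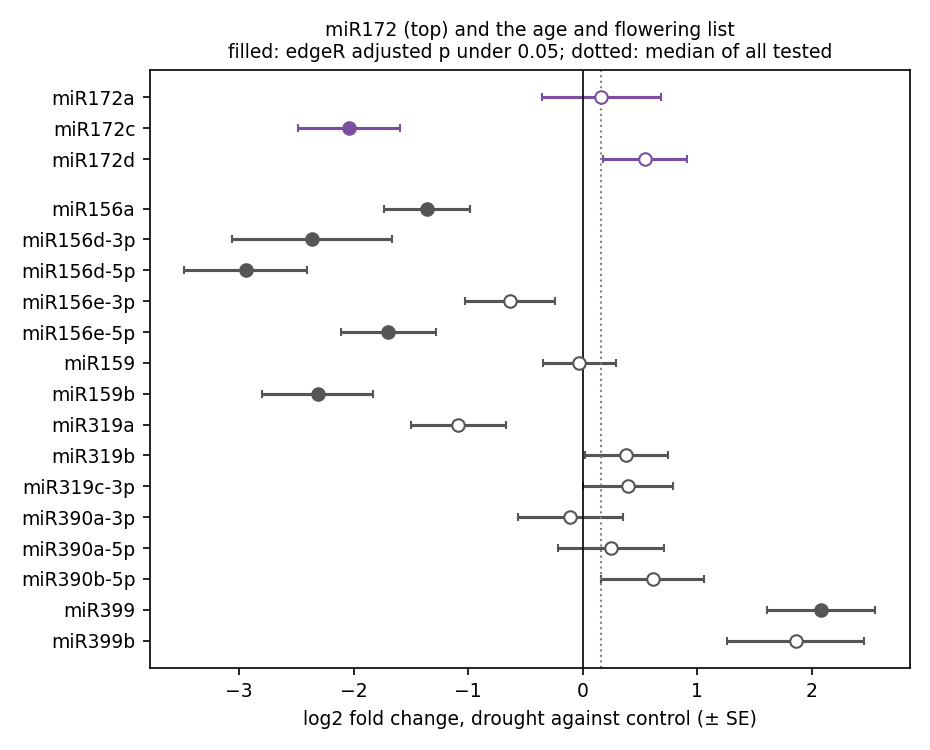
Log2 fold change, drought against control, with its standard error, for the miR172 members (top) and the 15 tested miRNAs of the age and flowering list; filled points have an edgeR adjusted p under 0.05 and the dotted line is the median of all 99 tested miRNAs. miR172c lies at -2.04 among the miR156 entries, which run from -2.94 to -0.64, while miR172a and miR172d lie at 0.16 and 0.54.

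The pattern of each member over the 6 libraries was compared with that of the other 98 tested miRNAs by the root mean square difference of log2 CPM, after centring each miRNA on its own mean. This is a description, since the points share libraries and scaling. The nearest to miR172c was miR159b (difference 0.37), followed by miR164a-5p (0.46), whose targets are NAC factors, and miR167b-5p (0.48), whose targets are auxin response factors; the median over all miRNAs was 1.21. For all 4 the lowest value was in drought library 1, which follows in part from choosing the neighbours by their likeness to miR172c. In drought miR167b-5p averaged 10.6 CPM, where 1 count was worth 1.58 to 2.66 CPM, so its values there rest on few counts. Of the other members, miR172a stood in 44th place at 1.13 and miR172d in 63rd at 1.38, on either side of that median. The nearest to miR172d were miR166c-3p (0.19), miR319b (0.22) and miR9476-5p (0.22), and to miR172a miR6026 (0.35), miR1919c-5p (0.37) and miR9471a-3p (0.43). The difference between miR172a and miR172d was 0.63, which put miR172d in 15th place seen from miR172a and miR172a in 48th place seen from miR172d.

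**Figure D5:**
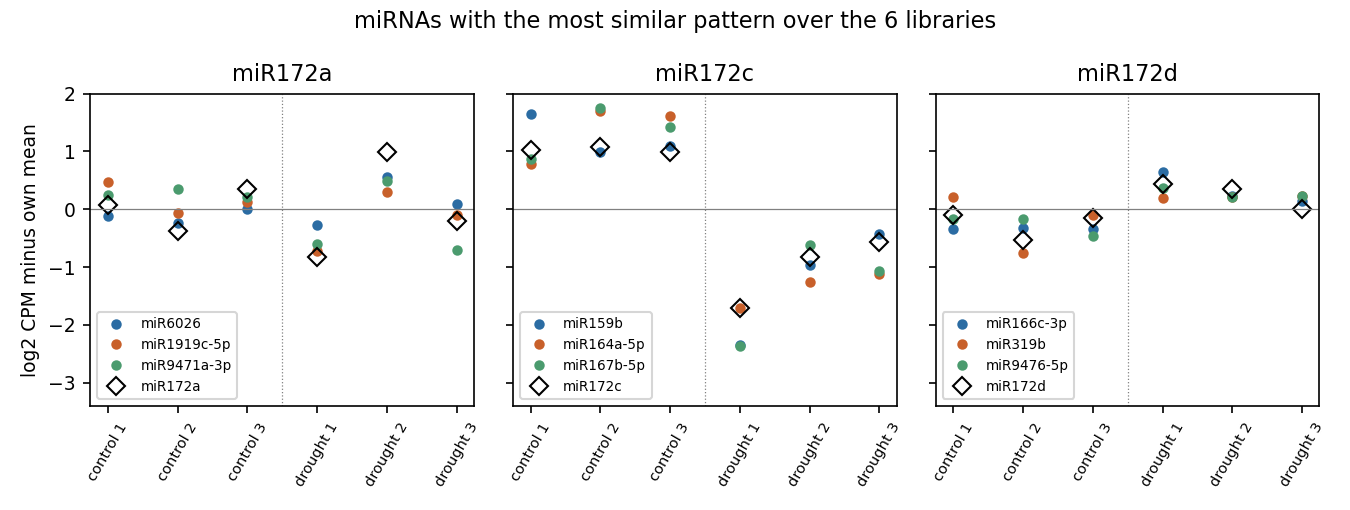
Log2 CPM of each miR172 member (diamonds) and of the 3 miRNAs with the smallest root mean square difference from it (dots) in each library, centred on each miRNA's own mean; the dotted line parts control from drought. miR172c and its 3 neighbours are above their means in every control library and below them in every drought library, whereas miR172a and its neighbours mix. The neighbours were chosen for this likeness.

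The authors' deposited table gives miR172c a log2 fold change of -1.96 and a false discovery rate of 0.000932. For miR172a the authors' deposited table gives 0.25 and 0.776, and for miR172d 0.60 and 0.172. The file header does not say which test gave them. On either basis miR172c is the member past 0.05.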

How the data were processed

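Per the labels' protocols, RNA was extracted with RNAiso Plus after a Fruit-mate step, treated with DNase and cleaned on RNeasy columns, and 240 ng went into NEBNext small RNA libraries. The authors deposited whole-number total counts per mature miRNA, and the file headers name no normalization of them. They also deposited a signal named CPM in the header, which is the counts divided by 1 constant per library (0.880 to 1.22 times the total). The sources used here do not state the trimmer, aligner, miRNA release or build.

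The counts went through edgeR 4.0.16 under R 4.3.3 (robust quasi-likelihood fit, TMM scaling, filterByExpr with minimum count 10 and minimum total count 15, 99 of 137 entries kept). P-values were adjusted by Benjamini-Hochberg over all tested entries, with a threshold of 0.05. The standard error is the log2 fold change divided by the square root of F. Sums over entries with the same number were tested alike. Ratios and shares were tested by exact two-sided permutation over all 20 assignments of libraries, with Python 3.11.15. The fits were also run on simulated counts that had the same spread for all miRNAs and no scaling factors. The data differ in both, so that run does not check the fits under the conditions of the data. No 2 libraries agreed within sampling noise (chi-square per degree of freedom of 50.1 or more). Alternatives used DESeq2 1.42.0, limma 3.58.1 (log2 of the deposited CPM plus 1), other scalings and filters, a replicate block and each library left out.

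Named miRNAs were the members, the most abundant and the passing entries of each listed family, and the 3 nearest patterns per member. miR156e-3p, miR399b and further miR319 and miR390 entries were added after their values were seen. The members and lists were chosen with earlier results of these data known.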

Additional observations from a re-analysis of the deposited data

How the results depend on the processing

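miR172c fell in all 15 other fits and passed in 14, with adjusted p from 8.25e-05 (DESeq2) to 0.0560 (without control replicate 2). With 1 library left out, log2 fold changes ran from -2.27 to -1.72 for miR172c, from -0.70 to 0.57 for miR172a, from 0.35 to 0.72 for miR172d and from -1.05 to -0.33 for the sum. The number of members past the threshold then ran from 0 to 1, and that of the age and flowering list from 3 to 8. Ratios and shares kept their direction without any 1 library. The differences in log2 ratio then ran from -2.45 to -1.70 for miR172c to miR172a, from -3.07 to -2.23 for miR172c to miR172d, from -1.06 to -0.06 for miR172a to miR172d and from -1.55 to -0.84 for miR156 to miR172. The share of miR172c then differed by -41.6 to -33.5 percentage points. Over all tested miRNAs, 20 passed, but 9 without control replicate 2, 13 without control replicate 3 and 41 without drought replicate 2.

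The scaling moved the median change over all tested miRNAs, on the log2 scale, from 0.16 (TMM) to 0.09 (DESeq2 size factors), 0.27 (library totals) and 0.40 (upper quartile). Relative to that median, miR172c stood at -2.20 to -2.13, miR172d at 0.36 to 0.43 and miR172a at 0.01 to 0.18. In all 4 scalings miR172c was lower and miR172d higher without overlap. With TMM, 19.2% of the tested miRNAs lay lower and 18.2% higher without overlap. These shares were not counted under the other scalings, and a raised median makes a higher position easier to reach. The sum stood at -0.65 to -0.49 relative to the median of the families, which moved from -0.02 (TMM) to 0.52 (upper quartile). The stricter filter (50 counts in 3 libraries) gives no value for miR172d. With the replicate block miR172c stood at -2.11 (edgeR adjusted p = 0.0390) and miR172a turned to -0.029, the list had 2 calls and all miRNAs 12; the causes were not tested. Deviations of same-numbered libraries correlated at 0.10, -0.24 and 0.01, and not every library correlated best with its own number, so the numbers were not taken as pairs. Depth limits miR172c most in drought, at 12 to 39 counts a library.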
